A study of Mus musculus with 14 samples.

Results

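The step from 6 h to 12 h of hypoxia was read from 2 lists of open chromatin peaks in 4T1, a line of mouse mammary carcinoma cells that grows as an epithelial tumor. Cells had been kept at 1% O2 for 12 h or for 6 h, then collected and fixed inside the hypoxia workstation before transposition, so that the chromatin was caught without a return to air. Accessible DNA was marked by bulk ATAC-seq, in which a transposase cuts and tags open stretches of the genome. The series holds 14 samples in 7 groups of 2, which are normoxia, whose label gives no oxygen level while control cells for flow cytometry were kept at 5% oxygen, and 6 time points at 1% O2 up to 72 h, and the peaks of a group were called on the merged reads of both samples. A 12 h peak that shared no base with any 6 h peak was counted as new at 12 h, a 6 h peak that shared none with any 12 h peak as left behind from 6 h, and the others as shared. Merged together, the 12 h and 6 h lists made 84128 regions of the 108795 that the 7 lists made: 36600 with a peak at 12 h alone, 2572 with a peak at 6 h alone and 44956 with a peak in both. Because each condition is 1 merged list, no value here has a replicate error and no test between the times was possible. The intervals given are exact (Clopper-Pearson) binomial intervals at 95% and cover counting error only.

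Cells short of oxygen stabilise the alpha subunits of the hypoxia-inducible factors (HIF), which with their partner Arnt bind a short core sequence and raise the genes of glycolysis, vessel growth, iron handling and pH control. Under normal oxygen the prolyl hydroxylases Egln1, Egln2 and Egln3 mark HIF for the ubiquitin ligase that holds Vhl and Cul2, and Hif1an blocks its activation domain. In epithelial tumor cells much of the distal open chromatin carries sites for AP-1, the Fos and Jun dimers, and for the TEAD factors that work with Yap1.

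The strongest peak that was new at 12 h lay 17946 bp from the start of Gm14322, a predicted gene, and the next ones lay in introns of Celf2, an RNA-binding splicing regulator, Fgd4, an exchange factor for the GTPase Cdc42, and Evi5, a regulator of the cell cycle. The 151 bases around their summits are shown because they are the clearest cases of the class (mm9, plus strand, 5′ to 3′). Capitals mark matches, on either strand, to the 18 motifs searched, among them AP-1 (TGANTCA), the HIF core (ACGTG or GCGTG), CEBP (TTNCNNAA), NFI (TTGGCA) and the antioxidant response element (TGACNNNGC).
Gm14322 region, new at 12 h, chr2:177515474-177515624: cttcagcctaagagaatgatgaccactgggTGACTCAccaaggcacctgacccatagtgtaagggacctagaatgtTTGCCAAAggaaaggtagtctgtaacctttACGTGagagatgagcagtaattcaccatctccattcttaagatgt
Celf2 intron, new at 12 h, chr2:6470398-6470548: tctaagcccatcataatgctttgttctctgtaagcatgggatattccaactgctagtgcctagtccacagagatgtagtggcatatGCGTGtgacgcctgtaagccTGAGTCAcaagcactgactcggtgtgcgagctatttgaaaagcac
Fgd4 intron, new at 12 h, chr16:16450271-16450421: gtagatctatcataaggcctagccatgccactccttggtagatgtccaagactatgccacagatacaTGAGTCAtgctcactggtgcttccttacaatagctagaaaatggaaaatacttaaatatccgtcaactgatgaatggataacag
Evi5 intron, new at 12 h, chr5:108231730-108231880: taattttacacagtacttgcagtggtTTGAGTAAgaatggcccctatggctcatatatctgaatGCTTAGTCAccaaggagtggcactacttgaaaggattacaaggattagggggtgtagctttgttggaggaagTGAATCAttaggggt
All 4 windows hold an AP-1 match, and those at Gm14322 and Celf2 also hold a HIF core. These letters are common: within 100 bp of the summit an AP-1 match was present in 42.5% and a HIF core in 25.3% of all 12 h peaks. A match describes the sequence and does not show that a factor was bound.

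Among the strongest peaks left behind from 6 h were repeated sequences. The window near Tmem125 is a short unit repeated in tandem, which puts the same GCGTG into the window several times, and the window near Polr3k, a subunit gene of RNA polymerase III, holds a run of simple repeat. The window in an intron of Zc3h14, which encodes a poly(A) RNA-binding protein, is unique sequence with no match to any of the motifs. They are shown for this contrast (mm9, plus strand, capitals as above, with CCAAT for NFY).
Tmem125 region, left behind from 6 h, chr4:118220803-118220953: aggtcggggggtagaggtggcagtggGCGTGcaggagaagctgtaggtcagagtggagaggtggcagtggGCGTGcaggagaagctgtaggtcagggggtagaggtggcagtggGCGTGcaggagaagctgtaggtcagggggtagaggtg
Polr3k region, left behind from 6 h, chr2:181652218-181652368: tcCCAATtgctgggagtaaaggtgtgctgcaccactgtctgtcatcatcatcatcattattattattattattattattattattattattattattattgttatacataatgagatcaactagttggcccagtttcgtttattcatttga
Zc3h14 intron, left behind from 6 h, chr12:100017415-100017565: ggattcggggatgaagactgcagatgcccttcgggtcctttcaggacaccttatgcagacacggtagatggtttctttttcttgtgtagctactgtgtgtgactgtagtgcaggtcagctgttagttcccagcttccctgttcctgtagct
The 31 bases at the summit occurred 31 times in the genome near Tmem125, 29020 times near Polr3k and 1 time in Zc3h14. The strongest left-behind summit of all, 11019 bp from the start of the chemokine receptor gene Xcr1, had 44 copies. For the 10 strongest peaks new at 12 h each summit sequence occurred 1 time. Where a sequence has identical copies its reads cannot be placed with certainty, although the study kept only reads of high mapping quality, so the regions near Xcr1, Polr3k and Tmem125 are uncertain.

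The 2 lists differed in size and in signal. The 12 h list held 81732 peaks over 43.0 Mb and the 6 h list 49006 peaks over 23.8 Mb. The deposited fold enrichment is the reads piled up at a summit over the local background of the same merged reads, and both numbers could be recovered from the deposited values. The background of the genome was 2.34 reads at 12 h and 3.25 reads at 6 h, while the median summit had 25 reads at 12 h and 26 reads at 6 h. In the 43379 regions with exactly 1 peak in each list the median summit had 44 reads at 12 h and 27 reads at 6 h, a median ratio of 1.55. The 12 h list thus had the lower background and, in these shared regions but not over the whole list, the higher summits. Its weakest called summit had 8 reads, against 11 reads at 6 h. Summit reads are raw counts that were not scaled between lists, and they do not measure the depth of a library. The 6 h list had the fewest peaks and the highest background of the 7 lists. How far these differences set the classes below was not tested. With 1 list per time a change in chromatin and a difference in library depth or quality cannot be told apart.

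The cells behind both lists carried the promoter peaks of an epithelial line. Of 18 epithelial genes 16 had a promoter peak in both lists, against 10947 of all 22238 coding genes, among them Epcam, with a fold of 8.44 at 12 h and 6.72 at 6 h, and Cdh1, which encodes E-cadherin, with 8.40 at 12 h and 6.32 at 6 h. Krt5 and Cldn7 had none in either list. Of 12 mesenchymal genes 7 had a promoter peak in both lists (Vim, Fn1, Snai1, Snai2, Twist1, Zeb2 and Sparc) and 5 in neither. Of 11 annotated immune cell markers 10, Ptprc, Cd3e and Itgam among them, had no promoter peak at either time, and Csf1r had one in both. Of 9 fibroblast and endothelial markers 3 had a promoter peak in both lists (Col1a2, Pdgfra and Vwf), 2 at 12 h alone (Col1a1 and Pecam1) and 4 in neither.

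Most of the change in the lists was an addition at 12 h. New peaks numbered 36602, which is 44.8% of the 12 h list (44.4% to 45.1%), and left-behind peaks 2575, which is 5.25% of the 6 h list (5.06% to 5.46%). Of the bases under 6 h peaks 94.5% lay inside 12 h peaks, and of the bases under 12 h peaks 52.4% lay inside 6 h peaks. Among the regions with exactly 1 peak in each list 91.2% were wider at 12 h, with a median width of 621 bp at 12 h and 449 bp at 6 h. New peaks stood mostly apart from older ones, at a median of 12739 bp from the nearest 6 h peak, and 8.68% lay within 1 kb of one. Left-behind peaks stood at a median of 6315 bp from the nearest 12 h peak, and 19.1% lay within 1 kb of one.

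The new peaks were weak ones. Their median summit had 14 reads and a fold of 4.11, against 44 reads and a fold of 8.12 for the 12 h peaks that were shared. Left-behind peaks had a median of 15 reads and a fold of 3.29, against 27 reads and a fold of 5.11 for the 6 h peaks that were shared. Among the strongest decile of the 12 h list by fold enrichment 48 of 8173 peaks were new (0.587%, 0.433% to 0.778%), and in the ninth decile 6983 of 8173 were (85.4%). In the 6 h list none of the 4900 peaks of the strongest decile was left behind, which allows a share of up to 0.0753%, and in the weakest decile 1036 of 4901 were (21.1%). The plot of shares by decile shows both trends.

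**Figure D1:**
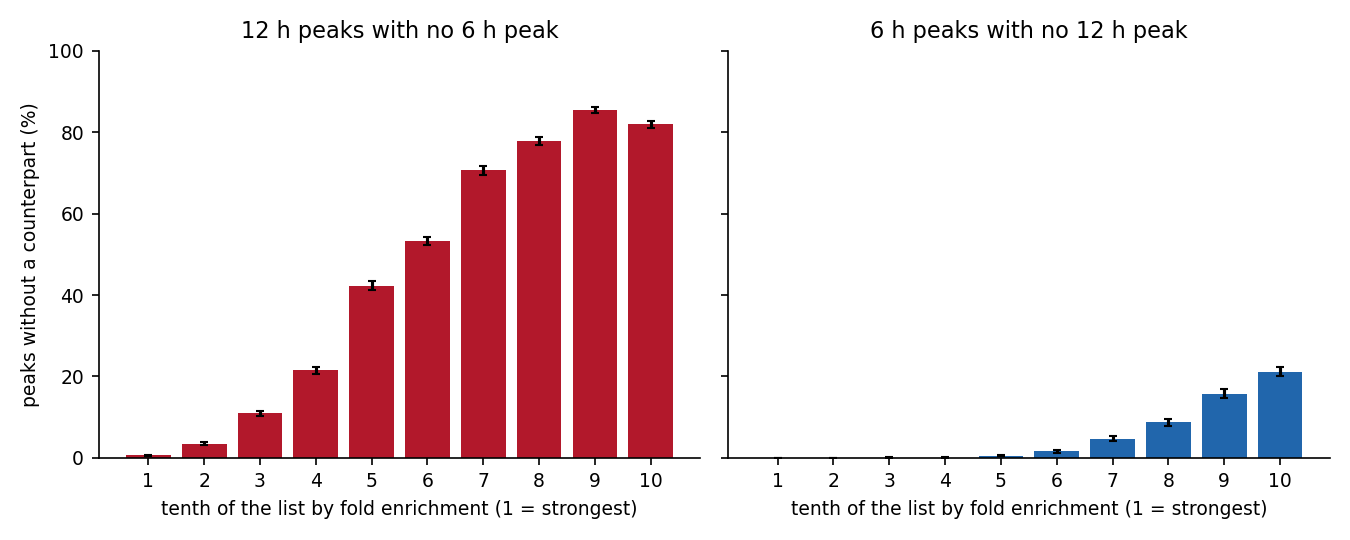
Percentage of peaks without a counterpart in the other list (y axis) by decile of fold enrichment within the list (x axis, 1 is the strongest), for 12 h peaks (left, red) and 6 h peaks (right, blue); error bars are exact 95% binomial intervals. The share is 85.4% in the ninth and 81.9% in the weakest decile at 12 h and reaches 21.1% in the weakest decile at 6 h.

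Cutting both lists to their 20000 peaks of highest fold removed the difference in size. On these lists 5116 12 h peaks (25.6%, 25.0% to 26.2%) and 5095 6 h peaks (25.5%, 24.9% to 26.1%) had no counterpart. The last peak kept and the first left out both had a fold of 8.79 at 12 h and of 5.57 at 6 h. Most of these unmatched peaks had a weaker partner below the cut. Against the full other list, 627 of the 20000 strongest 12 h peaks had no 6 h peak (3.13%, 2.90% to 3.39%), and 7 of the 20000 strongest 6 h peaks had no 12 h peak (0.0350%, 0.0141% to 0.0721%).

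The strongest new peaks were also called in normoxia. The Gm14322 region (chr2:177515234-177515755) had 52 summit reads at 12 h and no peak at 6 h, with 22 reads in normoxia and 34, 28, 29 and 29 reads at 24, 36, 48 and 72 h. The Celf2 intron had 51 reads at 12 h and no peak at 6 h, with 20 reads in normoxia and 36, 18 and 32 reads at 24, 36 and 48 h, and no peak at 72 h. The peak 47527 bp from the start of Ube2v2, a gene of DNA damage tolerance, had 52 reads at 12 h and no peak at 6 h, with 16 reads in normoxia and 49, 29, 48 and 24 reads at 24, 36, 48 and 72 h. All 10 of the strongest new peaks were called in normoxia and at 24, 36 and 48 h, and 9 of them at 72 h, so that the 6 h list is the one that lacks them. The others lay in introns of Shank2, a scaffold of synapses, Il1rapl1, a synaptic receptor gene whose peak has Mageb4 as its nearest coding start, Prkd1, which encodes protein kinase D1, and Dip2b, and 10046 bp from Prl7d1, a gene of the placental prolactin family. These 10 regions were chosen by their fold at 12 h. In raw reads, not scaled between lists, 12 h had the most of all 7 lists in each, from 42 to 52. By fold the Evi5 peak was higher in normoxia, at 14.7 against 13.8 at 12 h, and the others were highest at 12 h.

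The strongest left-behind peaks were sparser in the other lists. The Zc3h14 peak (chr12:100017347-100017625) had no peak at 12 h and 27 reads at 6 h, with 13 reads in normoxia, none at 24 h, and 13, 18 and 20 reads at 36, 48 and 72 h. A peak in an intron of Atg10, an enzyme gene of autophagosome formation, had no peak at 12 h and 24 reads at 6 h, and came back with 20 reads at 48 h and 17 reads at 72 h. A peak 17296 bp from Smarcc2, which encodes a subunit of the SWI/SNF remodeler, had 22 reads at 6 h and no peak in any other list. Peaks in introns of Col25a1, a transmembrane collagen gene, and Ccdc46, and near Ugt8a, an enzyme gene of myelin lipid synthesis, had 23 to 25 reads at 6 h and were called again at 72 h. One of the 10 was a promoter peak, 172 bp from the start of the melanocortin receptor gene Mc5r, with 22 reads at 6 h. In normoxia 2 of these 10 regions had a peak, and at 72 h 8 of them did.

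**Figure D2:**
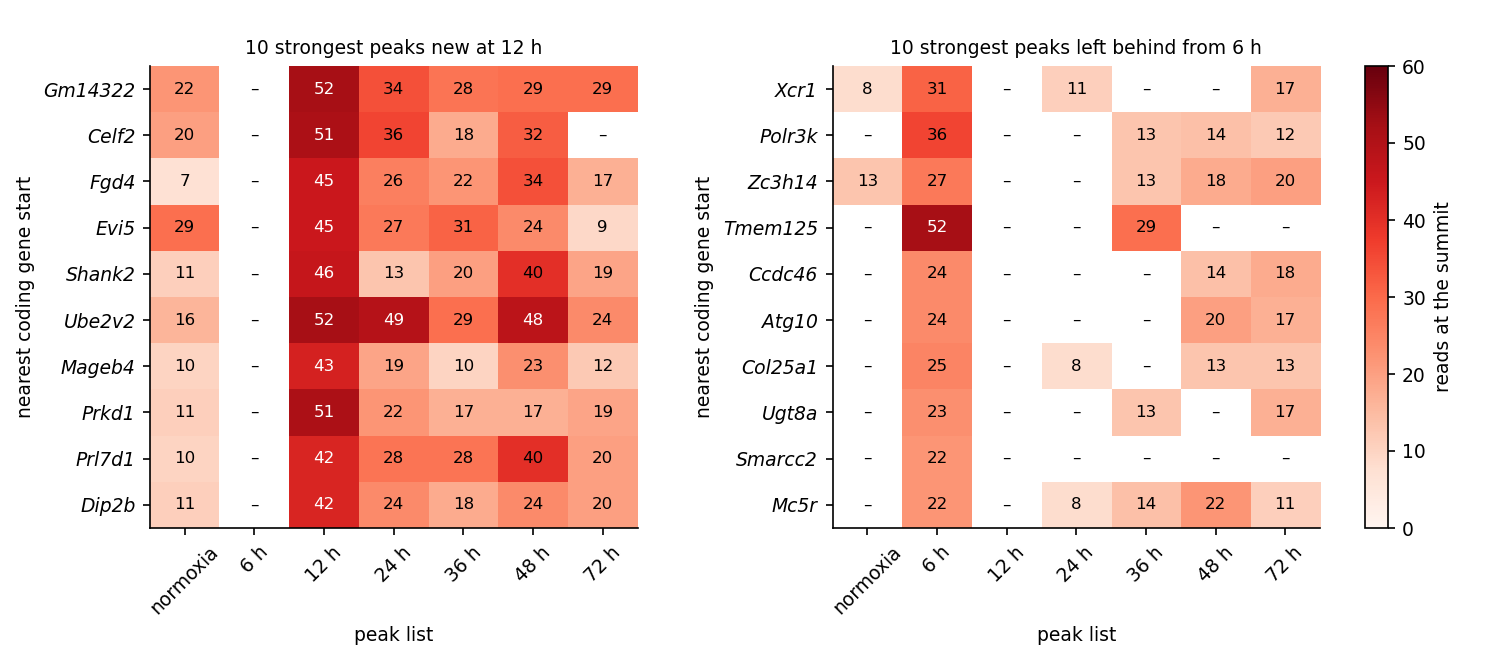
Reads at the summit (numbers and color) in each of the 7 peak lists (x axis, normoxia and then hours at 1% O2) for the 10 strongest peaks new at 12 h (left) and the 10 strongest left behind from 6 h (right), named by the nearest coding gene start (y axis); a dash means no peak in that list. The new peaks have 42 to 52 reads at 12 h and are present in normoxia, and the left-behind peaks have 22 to 52 reads at 6 h.

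Lists that the comparison did not use gave a second view of the same regions. Of the new peaks 34.8% (34.4% to 35.3%) were also called in normoxia, and 52.6%, 37.0%, 54.4% and 37.2% at 24, 36, 48 and 72 h. Of the shared 12 h peaks 90.2% were called in normoxia and between 90.2% and 96.0% in the later lists. Of the left-behind peaks 12.1% (10.9% to 13.4%) were called in normoxia and 17.0%, 15.7%, 24.0% and 20.2% at 24, 36, 48 and 72 h. New peaks were thus found in other lists more often than left-behind peaks and less often than shared ones. The 24 h list, the next in time, held 31.6% of the new peaks of the weakest decile and 100% of the 48 new peaks of the strongest decile.

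**Figure D3:**
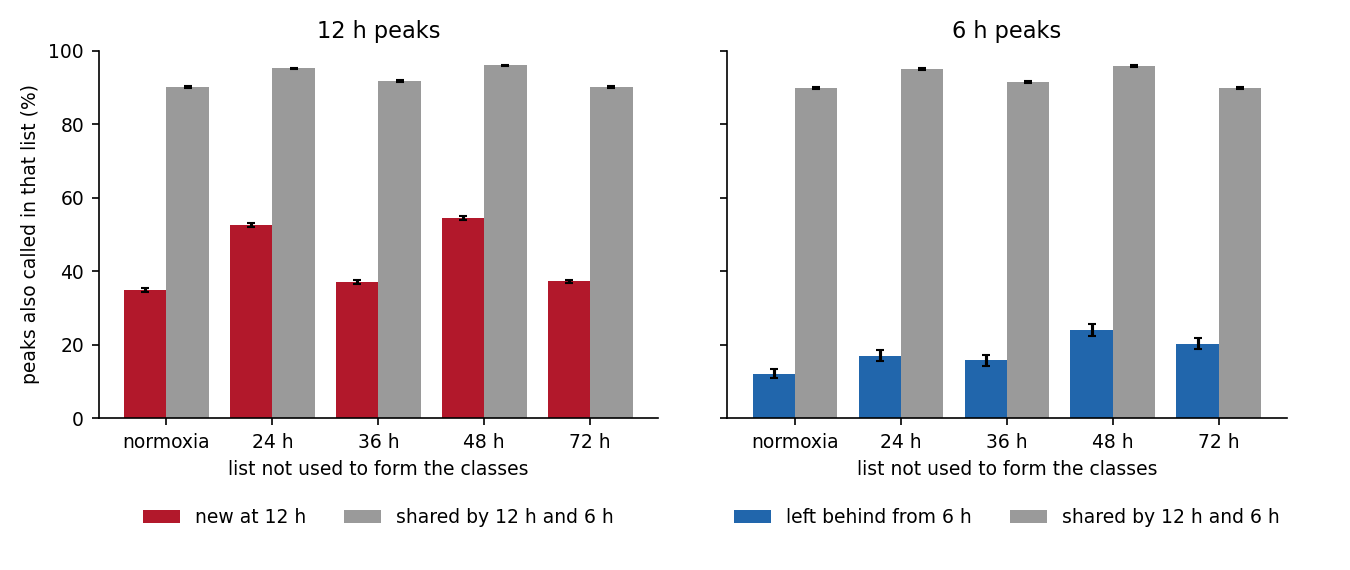
Percentage of peaks that were also called in each list not used to form the classes (x axis: normoxia, 24, 36, 48 and 72 h), for 12 h peaks (left: new in red, shared in grey) and 6 h peaks (right: left behind in blue, shared in grey); error bars are exact 95% binomial intervals. New peaks are found in 34.8% to 54.4% and left-behind peaks in 12.1% to 24.0%.

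By their pattern over the other 5 lists the new peaks fell into several kinds. In 4362 (11.9%) all 5 other lists had a peak, so that only the 6 h list lacked one. In 2349 (6.42%) the 4 later lists had a peak and normoxia had none, which is the pattern of sites called from 12 h on. In 8583 (23.4%) no other list had a peak. Among left-behind peaks 50 (1.94%) were in all 5 other lists and 1480 (57.5%) in none of them, so that most were seen at 6 h alone. For the shared 12 h peaks 80.7% were in all 5 other lists and 0.740% in none.

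New peaks were rare at promoters. A promoter, taken as 1 kb on each side of the start of a protein-coding gene, held 7.05% of the new peaks (6.79% to 7.32%) against 25.5% of the shared 12 h peaks, and 11.7% of the left-behind peaks (10.5% to 13.0%) against 25.7% of the shared 6 h peaks. Strength moved with this: when the shared peaks were re-weighted to the -log10 q of each class, their promoter share was 15.4% beside the new peaks and 15.1% beside the left-behind peaks. Introns held 40.2% and intergenic DNA 49.8% of the new peaks, and the median distance from a coding start was 29383 bp for new peaks against 15259 bp for shared ones. New peaks were also poorer in GC, with a median of 46.8% within 100 bp of the summit against 50.7% in shared peaks, and held a mean of 2.66 CpG against 6.26.

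Between the 20000 strongest peaks of each list the promoter share split the classes. Promoters held 12.6% (11.7% to 13.5%) of the 12 h peaks without a counterpart and 35.1% of the 6 h peaks without one. The shared peaks of these shorter lists stood at 35.8% on the 12 h side and 35.6% on the 6 h side. These ranks follow the fold, which divides by the local background, and the lists they were cut from differ in length. In the regions with exactly 1 peak in each list the fold was 1.29 times as high at 12 h at promoters (10738 regions) and 1.46 times as high in introns (14186 regions), whereas the ratio of summit reads was 1.53 at promoters and 1.57 in introns. The gap between promoters and introns was thus larger in the fold than in the reads.

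**Figure D4:**
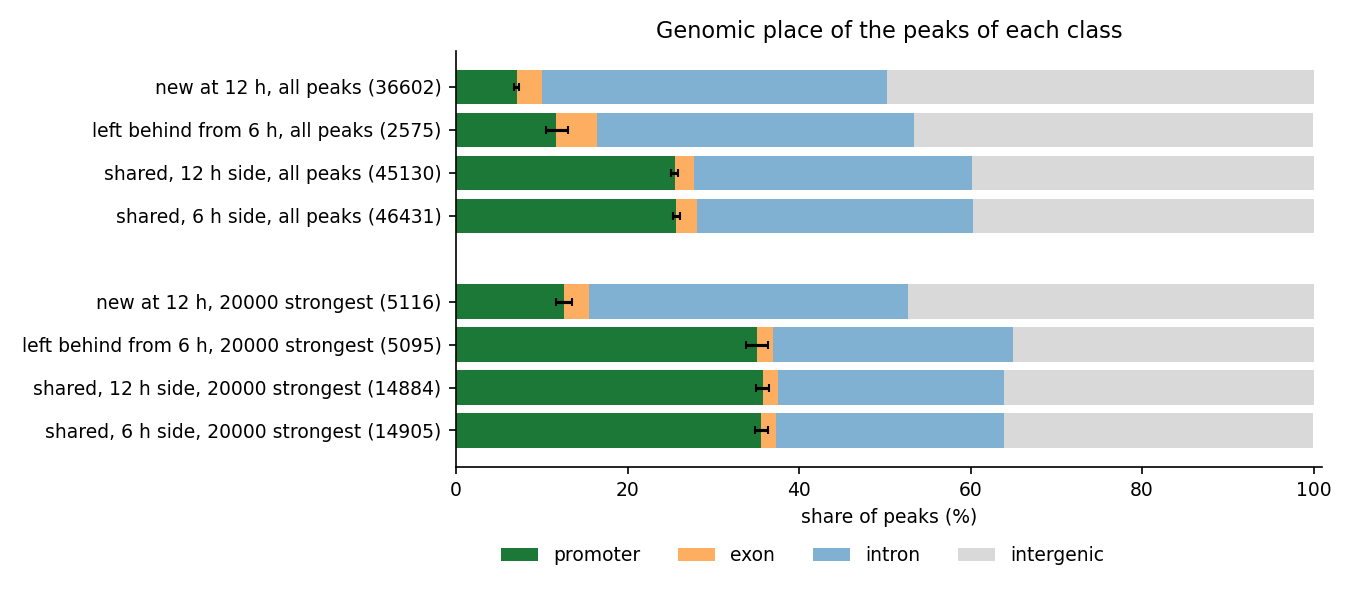
Share of peaks (x axis, %) in promoters, exons, introns and intergenic DNA for each class (rows, with the number of peaks), over all peaks (upper block) and among the 20000 strongest of each list (lower block); error bars are exact 95% intervals of the promoter share. New peaks have the lowest promoter share in both blocks, 7.05% and 12.6%, and left-behind peaks have 11.7% in the upper block and 35.1% in the lower one.

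Repeated sequence was more frequent in the left-behind class over the full lists. The 31 bases at the summit occurred more than 1 time in the genome in 8.08% of left-behind peaks (7.05% to 9.20%) and in 1.85% of shared 6 h peaks, or 2.22% after re-weighting to the same -log10 q. For the new peaks the share was 3.49% (3.31% to 3.69%), against 1.88% of shared 12 h peaks and 2.91% after re-weighting. Between the 20000 strongest peaks of each list the contrast was smaller, with 1.90% of the unmatched against 1.40% of the shared 6 h peaks, and 2.42% of the unmatched against 1.52% of the shared 12 h peaks. By position, left-behind peaks were most numerous near a few loci. Gm15319 on chromosome 8 had 15 left-behind peaks among the 41 6 h peaks nearest to it, its neighbor 4930467E23Rik had 7 of 15, C130026I21Rik and A530032D15Rik on chromosome 1 had 10 of 13 and 9 of 12, and the immunoglobulin segment Ighv1-73 had 8 of 10. C130026I21Rik and A530032D15Rik overlap each other, and the copy number of these loci was not measured. The new peaks were most numerous near the adhesion receptor gene Lphn3, with 40 new of the 72 12 h peaks nearest to it. Next were Macrod2 with 40 of 78 and the protocadherin gene Pcdh15 with 38 of 58, both long genes like Lphn3. Myc, of 4.98 kb, and Epha4, of 148 kb and with 35 new of 57, followed. Near Myc, which encodes the growth-driving transcription factor, 37 of 100 12 h peaks were new (37.0%, 27.6% to 47.2%), below the 44.8% of the whole list by less than the counting error, and 67 6 h peaks lay nearest to it.

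Among the motifs that were rarer at the summit in left-behind than in re-weighted shared peaks were TEAD and AP-1 sites. A TEAD site (GGAATG) was within 100 bp of the summit in 17.9% of new peaks (17.5% to 18.3%), against 16.6% of shared 12 h peaks and the ratio to shared peaks re-weighted to the same -log10 q and GC content was 1.19. Over the whole length of the peaks that ratio was 1.04. In left-behind peaks it was present in 10.9% (9.70% to 12.1%), against 16.5% of re-weighted shared 6 h peaks, a ratio of 0.661. An AP-1 site was found in 40.4% of new peaks against 40.5% of re-weighted shared peaks, a ratio of 0.998. In left-behind peaks the AP-1 share was 19.6% (18.1% to 21.2%) against 37.2%, a ratio of 0.527. Left-behind peaks with 1 genome copy at the summit gave 20.3% for AP-1, a ratio of 0.549, and a TEAD ratio of 0.663. That set leaves out only peaks whose summit bases have an exact copy elsewhere in the genome. Diverged repeats and repeats in other parts of a peak were not removed, and their part in the low shares was not tested. Between the 20000 strongest peaks of each list the AP-1 ratio of the unmatched 6 h peaks was 0.911 and that of the unmatched 12 h peaks 0.955. The TEAD ratio there was 0.898 for the unmatched 6 h peaks and 1.33 for the unmatched 12 h peaks.

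Among the other motifs the HIF core was present in 19.3% of new peaks (18.9% to 19.7%) and 22.4% of left-behind peaks, against 21.7% and 25.1% of re-weighted shared peaks, ratios of 0.890 and 0.894. Before re-weighting the shared 12 h peaks held it in 30.1%. ETS sites (CCGGAAG) had a ratio of 0.825 in new and 0.514 in left-behind peaks (0.806 on the 20000 strongest 6 h peaks), and the GC box of SP and KLF factors (GGGCGGG) 0.857 and 0.622, both of them elements typical of promoters. NF-kB sites (GGGANTTCC) had a ratio of 1.09 in new peaks, which turned to 0.912 on the 20000 strongest, and of 0.782 in left-behind peaks. CEBP, NFY (CCAAT) and RUNX (TGTGGT) sites had ratios of 0.911 to 1.04 in both classes, and in left-behind peaks all 3 lay on the other side of 1 on the 20000 strongest. CTCF, the insulator protein, had a ratio of 0.927 in new and 0.863 in left-behind peaks, which on the 20000 strongest peaks turned to 1.45 for the unmatched 12 h and 1.95 for the unmatched 6 h peaks. NRF1 sites (GCGCATGCG), which mark promoters of housekeeping genes, were present in none of the 2575 left-behind peaks, which allows a share of up to 0.143%, against 0.240% of re-weighted shared peaks. Motif shares were computed for 18 motifs in each class, and the lists have no replicate to test them with.

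**Figure D5:**
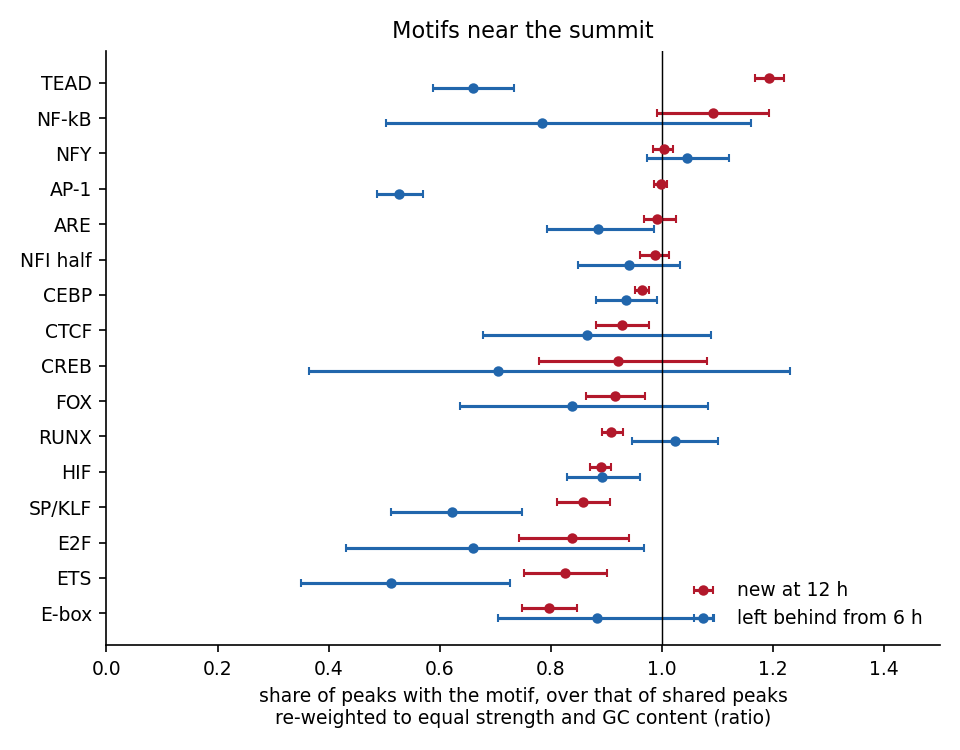
Ratio (x axis) of the share of peaks with each motif (y axis) within 100 bp of the summit to the share in shared peaks re-weighted to the same -log10 q and GC content, for peaks new at 12 h (red) and left behind from 6 h (blue); bars are the exact 95% intervals of the class share divided by the re-weighted share, and the line marks a ratio of 1. TEAD lies at 1.19 in new and 0.661 in left-behind peaks, and AP-1 at 0.998 and 0.527.

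Of the 22238 annotated protein-coding genes, 1152 had a peak in a promoter at 12 h and none at 6 h (5.18%), and 136 had one at 6 h and none at 12 h (0.612%). On the 20000 strongest peaks of each list the order of these counts turned, with 638 genes open at 12 h alone and 1826 at 6 h alone. Another 10947 genes had a promoter peak at both times. In 1092 of the 1152 and 129 of the 136 no promoter peak touched a peak of the other list at all. In the rest a peak that was shared reached into the promoter window in 1 of the lists only. Of the 1152 genes 533 also had a promoter peak in normoxia, 722 at 24 h and 226 in all 5 other lists. Of the 136 genes 16 had one in normoxia and 78 in none of the 5 other lists.

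The strongest promoter peaks new at 12 h, by fold and with no 6 h peak touching them, included those of Tspan15, Slc4a3, Scrn2, Trim15, Olfr113, Cul2, Gm5152, Arc and Lrrc10b. This listing was chosen after the values were seen. Tspan15, a tetraspanin gene, had a fold of 12.7 at 12 h and no peak at 6 h, with 7.27 in normoxia and 8.78, 6.52, 13.4 and 6.82 at 24, 36, 48 and 72 h. Cul2, the scaffold of the ubiquitin ligase that holds Vhl, had a fold of 10.2 at 12 h and no peak at 6 h, with 5.71 in normoxia and 8.08, 4.66, 6.54 and 3.98 in the later lists. Arc, an immediate early gene of neurons, had 9.88 at 12 h and no peak at 6 h, with 7.79 in normoxia. Of the genes named here all but Gm5152 had a promoter peak in all 5 other lists. Without the requirement that no 6 h peak touch them, the highest folds at 12 h after that of Olfr457 were 13.4 at Angptl6, 13.2 at Ltc4s, 12.7 at Blnk, 11.8 at Gm9808, 11.6 at A630033H20Rik, 11.5 at Rapsn and Ccr3 and 11.4 at Ebf2. At these genes and Olfr457 a promoter peak at 12 h overlapped a 6 h peak that ended outside the window.

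Of the promoters left behind from 6 h the strongest was that of Dnm3, a dynamin gene, with no promoter peak at 12 h and a fold of 6.67 at 6 h, 4.15 in normoxia and 5.11 at 72 h, although its 6 h peak overlapped a 12 h peak outside the window. Spp1, which encodes the secreted matrix protein osteopontin, had no promoter peak at 12 h and a fold of 5.41 at 6 h, with 6.29 in normoxia and 5.35, 4.39, 5.13 and 4.39 at 24, 36, 48 and 72 h. Of all 7 lists the 12 h list alone lacked the Spp1 promoter peak. Mc5r had none at 12 h, 5.41 at 6 h and none in normoxia, with 3.16, 4.66, 6.54 and 3.41 in the later lists. Avpr1b, a vasopressin receptor gene, and Vtn, the vitronectin gene, had folds of 4.70 and 4.94 at 6 h and no promoter peak in any other list, but at Vtn the 6 h peak overlapped a 12 h peak outside the window. Dppa2, a gene of pluripotent cells, had 4.70 at 6 h, and 5.97 and 3.69 at 48 and 72 h. The others were 1700016C15Rik (5.17), 4933436C20Rik (4.66), Gm9758 (4.47) and 9030612E09Rik (4.47), the last with the same kind of overlap as Vtn.

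Genes of the hypoxia response were for the most part open at both times. Among 245 genes in 19 lists 192 had a promoter peak in both lists, 13 at 12 h alone, 1 at 6 h alone and 39 in neither, so that the 13 stand near the 5.18% of all coding genes. Of all 22238 coding genes 10947 were open in both. Of 21 HIF targets of glucose uptake and glycolysis 20 were open in both and Slc2a3, a glucose transporter gene, in neither. All 14 HIF targets of mitophagy, mTOR control and survival were open in both. Open in both were also 5 of 7 HIF targets of pH and lactate and 9 of 13 of vessels and iron. Of the collagen hydroxylases and lysyl oxidases 7 of 11 were. Slc16a3, Kdr, Adm, P4ha3, Lox and Loxl1 had no promoter peak at either time. The HIF targets with a promoter peak at 12 h alone were Car9, Vegfb, Pgf and Loxl2. Car9, the carbonic anhydrase that exports acid under low oxygen, had a promoter peak with 15 reads and a fold of 4.79 at 12 h and none at 6 h. The same region had no peak in normoxia or at 24 h and folds of 3.09, 5.00 and 4.44 at 36, 48 and 72 h, while elsewhere in the promoter the 24 h list had a peak of 4.22. Its summit lay 9 bp from the start, and the window held a HIF core and an AP-1 site. The growth factor genes Vegfb and Pgf had folds of 3.59 and 4.49 at 12 h and no 6 h peak, and Vegfb also had 5.71 in normoxia. Loxl2, a lysyl oxidase gene of matrix crosslinking, had 4.98 at 12 h and no peak at 6 h, with 6.45 in normoxia. Epas1, which encodes the HIF-2 alpha subunit, went the other way, with no promoter peak at 12 h and 14 reads and a fold of 3.04 at 6 h, and it had peaks at 24 and 36 h but not in normoxia.

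Outside the HIF targets, Rela, the p65 subunit of NF-kB, stood out by strength. Its promoter peak had 29 reads and a fold of 8.98 at 12 h and was missing at 6 h, with 13 reads in normoxia and 23, 24, 24 and 15 reads at 24, 36, 48 and 72 h. Nfkb1, which encodes the p50 subunit, had a peak of 29 reads and a fold of 3.06 at 12 h and none at 6 h or in normoxia. Pitx1, a homeobox factor, had 2 weak peaks of 9 and 13 reads at 12 h and none at 6 h. The cytokine genes Csf2 and Il1a had 17 and 12 reads at 12 h and no peak at 6 h, and both had a peak in normoxia. Kdm5b, an oxygen-dependent histone demethylase gene, had 14 reads at 12 h, and Tead2 had 2 peaks of 9 and 10 reads at 12 h with no counterpart in any other list, although the 48 h list had a promoter peak elsewhere. Col1a1 had 2 peaks of 10 and 11 reads at 12 h. At Pecam1 a 12 h peak of 20 reads overlapped a 6 h peak of 19 reads that ended outside the promoter window. Apart from Rela, Nfkb1 and Pecam1 these peaks had 19 reads or fewer, below the median of 25 reads over the 12 h list, whose weakest summit had 8 reads. Some were well above the weakest call, such as Csf2 with a -log10 q of 7.99 against a lowest of 1.30. All of them are promoter peaks on either side of a detection limit, and no difference in level can be read from them.

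Where a promoter was open at both times the size of the peak can be set side by side. Over the 10947 genes the median ratio of the strongest promoter fold, 12 h over 6 h, was 1.29, and 9967 had the higher fold at 12 h, so that a gene is read here against 1.29. The HIF subunits and oxygen sensors lay above it, with a median of 1.55 over 10 genes. Vhl had a fold of 14.4 at 12 h and 5.44 at 6 h, a ratio of 2.65, with 59 reads at 12 h and 25 reads at 6 h. The prolyl hydroxylase Egln1 had 11.4 at 12 h and 5.90 at 6 h, and Hif1an 14.5 at 12 h and 7.76 at 6 h. For these 3 genes normoxia stood between the 12 h and 6 h levels, with 9.31 for Vhl, 6.88 for Egln1 and 11.5 for Hif1an. Hif1a itself had 13.7 at 12 h and 11.1 at 6 h, a ratio of 1.23, and the hypoxia-induced Egln3 had 8.80 at 12 h and 7.92 at 6 h, a ratio of 1.11. In summit reads the sensors' median ratio was 1.62, against 1.53 over all genes, so that the gap was smaller in reads than in folds.

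The median ratio of the AP-1 genes, 0.922 over 9 genes, was below the common one. Of the 9, 4 had the higher fold at 12 h, with ratios of 1.62 for Batf3, 1.18 for Fosl2, 1.14 for Jund and 1.11 for Atf3. Fosl1 had a fold of 5.99 at 12 h and 7.57 at 6 h, Fos 3.74 at 12 h and 4.56 at 6 h, Fosb 3.16 at 12 h and 3.89 at 6 h, Junb 2.43 at 12 h and 2.93 at 6 h, and Jun 4.99 at 12 h and 5.41 at 6 h. Reads were not scaled to the genome background, which was 2.34 reads at 12 h and 3.25 reads at 6 h. In raw reads Fos and Fosl1 were lower at 12 h, with 25 and 36 reads against 36 and 42 reads at 6 h. Jun went the other way, with 153 reads at 12 h and 86 reads at 6 h. The median read ratio of the AP-1 genes was 1.32. The clock gene Per1 had a ratio of 0.800 and the stress factor gene Ddit3 0.856, although both had more reads at 12 h. HIF targets of glycolysis had a median of 1.17 over 20 genes, from 0.970 to 1.76, below the common 1.29, whereas their median read ratio of 1.62 was above the common 1.53. Among them was Pdk1, the kinase that shuts pyruvate out of the mitochondria, at 13.3 at 12 h and 8.90 at 6 h. At the upper end were also Tyms, the thymidylate synthase gene (9.59 at 12 h and 4.00 at 6 h), Car12 (8.43 at 12 h and 3.76 at 6 h) and the cytokine gene Il6 (8.38 at 12 h and 4.23 at 6 h). These genes were picked out by their ratios after the values were seen, and a list's median is a description with no test.

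Among all regions with exactly 1 peak in each list the median fold ratio was 1.41, with quartiles of 1.17 and 1.75. Relative to that median, 697 regions (1.61%) lay over 2-fold above and 153 (0.353%) over 2-fold below. The regions with the highest ratios, among those with either peak in the 20000 strongest, were distal. The region 31163 bp from the start of Maged2 had a fold of 12.8 at 12 h and 2.82 at 6 h, a ratio of 4.53, and 10.9 in normoxia. An intron peak of Ncoa1, the nuclear receptor coactivator gene, had 15.9 at 12 h and 3.53 at 6 h, with 7.79 in normoxia. The region 233480 bp from Foxp1, a forkhead factor gene, had 12.4 at 12 h and 2.82 at 6 h, with 9.35 in normoxia, and peaks in introns of Sel1l3 and at Ceacam16 had 11.7 and 12.6 at 12 h and 2.69 and 2.84 at 6 h. All 5 had a fold in normoxia above that at 6 h. They were chosen by a high ratio, which favors a low fold at 6 h. Over all regions with exactly 1 peak in each list the median fold was also higher in normoxia, at 7.79 against 5.17 at 6 h.

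The regions with the lowest ratios differed from these in the other lists. The region 263591 bp from Stmn2 had a fold of 3.89 at 12 h and 9.33 at 6 h, with 12 reads at 12 h and 60 reads at 6 h. It had no peak in normoxia, 4.57 at 24 h, and 9.19, 7.67 and 9.94 at 36, 48 and 72 h. The region near Vmn1r77, a tandem repeat with the vomeronasal receptor gene as its nearest coding gene, had 3.89 at 12 h and 9.18 at 6 h and no peak in normoxia. An intron of Apool had 6.15 at 12 h and 13.0 at 6 h, with 7.28 in normoxia and 7.03, 12.2, 10.7 and 12.0 at 24, 36, 48 and 72 h. The region near E030030I06Rik had 5.10 at 12 h and 10.8 at 6 h, and 5.05, 5.18, 9.44, 7.69 and 8.68 in normoxia and at 24, 36, 48 and 72 h. At Stmn2, Apool and E030030I06Rik the levels at 36, 48 and 72 h were all above that at 12 h. These regions were chosen by a low ratio, which favors a low fold at 12 h, so higher levels in other lists may follow from the choice. The fifth, 283590 bp from Rbms1, had 2.94 at 12 h and 6.35 at 6 h. The summit sequence near Stmn2 had 3 copies in the genome and that near Vmn1r77 had 2.

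In lists that did not choose these regions the groups also differed, but so did their strength. The median fold at 12 h was 11.3 for the 697 regions above the median and 3.24 for the 153 below it. Of the 697 regions above the median 96.3% (94.6% to 97.5%) had a peak in normoxia and 99.7% at 24 h, with a median fold of 7.79 in normoxia, equal to that of all such regions. Of the 153 regions below it 57.5% (49.3% to 65.5%) had a peak in normoxia, against 65.4%, 71.9%, 81.0% and 75.8% at 24, 36, 48 and 72 h. Over all 43379 regions 90.1% had a peak in normoxia. Of the shared 12 h peaks in the weakest decile by fold, 53.5% had a peak in normoxia and 68.7% at 24 h. The strongest shared peak of both lists, in an intron of the adhesion gene Chl1, had 176 reads and a fold of 23.5 at 12 h and 171 reads and a fold of 21.2 at 6 h, and its summit sequence had 4 copies in the genome.

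By motif and GC content the shared regions shifted little. With an AP-1 site the median fold ratio was 1.48 and without one 1.36, and in reads 1.59 and 1.52. With a TEAD site the read ratio was 1.62 and without one 1.54. Regions with a CTCF site had a read ratio of 1.29 against 1.56 without one, the lowest of the 18 motifs, while their fold ratio of 1.41 was equal to that of the rest. From the fifth of regions lowest in GC to the highest the fold ratio went over 1.48, 1.47, 1.45, 1.40 and 1.30, while the read ratio was 1.61 in the lowest and 1.53 in the highest. Over the chromosomes the new share ran from 40.6% on chromosome 11 to 51.5% on chromosome X (49.3% to 53.7%), and the left-behind share from 2.44% on chromosome X to 8.04% on chromosome 8 (7.05% to 9.11%), where Gm15319 and 4930467E23Rik lie.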

How the data were processed

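ATAC-seq reads were made into 7 peak lists by the authors, each from the merged reads of 2 samples after mapping to mm9, a filter on mapping quality and removal of duplicates and mitochondrial reads. Their processing notes name Bowtie2 2.1.0, Picard 1.79 and MACS2, whose version is not given in the sources used here. The deposited values are the fold enrichment at the summit, and -log10 p and -log10 q as MACS2 gives them in its peak format. The lowest -log10 q in the deposited lists is 1.30, while the methods describe a stricter q and a removal of mitochondrial-like and excluded regions, neither of which was applied here. Whether the deposited lists had gone through that removal is not known.

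Repeated rows of an interval (several summits) were reduced to the row of highest fold. Overlap was any shared base, on all peaks and on the 20000 of highest fold. The read totals of the libraries are not in the lists, so depth was not measured. Summit reads and background were recovered from the deposited fold and -log10 p, and reads were not scaled between lists. Coordinates, sequence and genes are those of mm9 (NCBIM37 genome and annotation). Promoters reached 1 kb to either side of protein-coding starts. Motifs were sought within 100 bp of the summit on both strands, and copies of the 31 bases at the summit in the whole genome. Shared peaks were re-weighted over 10 bins of -log10 q, and for motifs also 5 bins of GC. Regions named were the strongest of each class by fold, and the shared regions of highest and lowest fold ratio among those with either peak in the 20000. Genes named were those of the lists whose promoter call differed, the strongest promoter calls of each class, the genes nearest to most new or left-behind peaks, and examples of each list. Members and gene lists were chosen with earlier results of these data known. The steps were checked on simulated data. Intervals came from scipy 1.17.1, tables from pandas 2.3.3 and numpy 2.4.6, sequences from pysam 0.24.0 and plots from matplotlib 3.10.9, under Python 3.11.15.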

Additional observations from a re-analysis of the deposited data

How the results depend on the processing

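No paired analysis was possible because each list pools both replicates, and for the same reason no replicate could be left out. The share of 12 h peaks without a 6 h peak was 43.0% with -log10 q of 5 or more, 50.8% when 50% of the peak had to be shared and 46.2% by summits within 250 bp. The share of 6 h peaks without a 12 h peak was 2.51%, 5.94% and 10.2% under these settings. Among the 20000 strongest peaks the 12 h share was 16.2% when ranked by -log10 q, 35.9% with 10000 peaks, 3.13% against the full other list and 27.7% with 50% shared, and the 6 h share was 15.7% when ranked by -log10 q, 35.9% with 10000 peaks, 0.0350% against the full other list and 26.1% by summits. Genes with a promoter peak at 12 h alone numbered 1803 with 5 kb promoters and 638 on the 20000 strongest peaks. Genes with one at 6 h alone numbered 48 with -log10 q of 5 or more and 1826 on the 20000 strongest peaks. With the requirement that no peak of the other list touch the promoter peak, an alternative chosen after seeing the data, they numbered 1092 and 129. On the 20000 strongest peaks these motif ratios lay on the other side of 1 from the full lists: in new peaks CTCF at 1.45, NF-kB at 0.912, NFI at 1.05 and ARE at 1.03, and in left-behind peaks CTCF at 1.95, GRHL at 1.45, FOX at 1.10, CREB at 1.03, CEBP at 1.01, RUNX at 0.979 and NFY at 0.957. The causes were not tested. Summits of fewer than 8 reads at 12 h and 11 reads at 6 h were not called, which limits what a missing peak can show.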

Other observations

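Peaks on chromosome Y numbered 6 at 12 h and 0 at 6 h, against 0 in normoxia and 6, 8, 0 and 2 at 24, 36, 48 and 72 h. Peaks nearest to the 10 annotated AP-1 genes were new at 12 h in 19 of 74 cases (25.7%, 16.2% to 37.2%), and those nearest to 15 cytokine genes in 20 of 78 (25.6%, 16.4% to 36.8%), both below the 44.8% of the whole list. Peaks nearest to the immune cell markers were new in 21 of 25 cases (84.0%, 63.9% to 95.5%). Peaks near 1 gene are not independent of each other, and these lists were picked out after their values were seen.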
